A study of Mus musculus with 12 samples.

Results

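The prefrontal cortex of mice killed 2 h after the last of a series of cocaine injections was set against that of mice killed 24 h after it, gene by gene. The aim was to describe how gene levels differed between these times of the first day. Of 39929 gene names in the tables, 12420 entered the comparison. They were tested in both tables, carried a cocaine value of at least 1 FPKM (fragments per kilobase of transcript, corrected for how many fragments each library mapped) in both, and had 1 longest locus. The ratio of 2 h to 24 h is given on the log2 scale after the median over all genes was subtracted, and a gene is called higher or lower at 2 h where it is at least 1.5-fold from that median.

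Both groups were adult male C57BL/6 J mice aged 10 weeks, given cocaine at 20 mg/kg per day for 14 days and killed 2 h or 24 h after the last dose. Each group gave 2 poly(A)-enriched libraries, each pooled from the cortices of 5 mice, so that 4 of the 12 samples of the series and 20 mice stand behind the comparison. Saline-injected mice of the same age were killed at the same times, also as 2 libraries of 5 mice per group, and their ratio of 2 h to 24 h is given beside that of cocaine. A further pair of groups, killed after 7 d of withdrawal, gives cocaine and saline levels that the comparison did not use.

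Cocaine blocks the reuptake of dopamine, noradrenaline and serotonin, and the prefrontal cortex receives fibres that release all of these. Neurons driven in this way switch on immediate-early genes without making new protein first. Their messages are short-lived, and many encode transcription factors (Fos, Jun, Egr and Nr4a families), synaptic effectors such as Arc, or phosphatases and adaptors that shut MAP kinase signalling down again. Other genes in the cortex swing with the time of day through the circadian clock or follow circulating corticosteroids.

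The deposited tables hold 1 pooled value per group, so the ratio of 2 h to 24 h has no spread between libraries, no standard error and no test here, and the tables do not show how deeply a library was sequenced. The 2 h and 24 h tables were also normalized separately, and time since the dose, time of day, the animals and the library preparation cannot be told apart between them. In bulk tissue, fewer cells of a type and less RNA per cell cannot be told apart either. All 10 cortical neuron markers were measured, and they summed to 1663 FPKM at 2 h and 1649 FPKM at 24 h in cocaine. The 7 measured meninges and choroid plexus markers summed to 2169 and 1840 FPKM, so these sums do not test the tissue label. Of the 10 marker lists, covering cortical neurons, glia, vessels, meninges, blood, striatum and olfactory bulb, none had a member past 1.5-fold in cocaine. In saline, their medians lay between -0.52 (red blood cells) and 0.12 (cortical neurons), with all 10 astrocyte markers below 0 and a median of -0.25. The 5 red blood cell transcripts summed to 504 FPKM at both times in cocaine and to 323 and 458 FPKM at 2 h and 24 h in saline, and the part of these cells in the saline ratios was not tested.

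In cocaine, 169 genes (1.36%) were higher and 206 (1.66%) lower at 2 h than at 24 h. Among the same genes in saline, 139 of 12373 (1.12%) were higher and 189 (1.53%) lower. The minimum of 1 FPKM was set on the cocaine values only, so some saline ratios rest on lower levels. The central 95% of the centred cocaine ratios ran from -0.49 to 0.45. It ran from -0.67 to 0.57 in the lowest of 5 equal bands of genes by cocaine level (mean up to 3.01 FPKM) and from -0.29 to 0.39 in the highest band (from 28.9 FPKM). A ratio of 1.5-fold was therefore near the edge of the scatter for low genes and outside it for high ones. Of the 9872 protein-coding genes with 1 locus per name, 78 (0.79%) were higher and 86 (0.871%) lower in cocaine, and in saline 38 (0.385%) were higher and 80 (0.81%) lower. Protein-coding genes made up 46.7% of all genes called higher, 42.2% of those called lower and 84.0% of the rest.

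Egr2 and Nr4a3, both of the immediate-early lists, had the largest ratios of the protein-coding genes with 1 locus that were called higher. Of the 73 measured genes in 8 such lists, 13 were at least 1.5-fold higher at 2 h, against 1.36% of all genes. With a pseudocount of 1, Fos (0.58), Sik1 (0.55), Fosl2 (0.52) and Spry3 (0.41) fell short of 1.5-fold. With the saline ratio subtracted Ier5 (0.53), Egr1 (0.52), Spry3 (0.40) and Spred2 (0.29) did. The other 6 of the 13 passed under every alternative that kept them. Not all of them were kept in each: a minimum of 5 FPKM left out Fosb, Egr2, Nr4a2 and Nr4a3. Egr4 was left out where a name had to sit on 1 locus. None of the 73 was called lower, and 66 had a centred ratio above 0. Their median ratio was 0.23 in cocaine and -0.15 in saline. In saline 10 of them were at least 1.5-fold lower at 2 h than at 24 h and 0 were higher. The lists hold 83 names, and the other 10 fell below the minimum, had tied loci, were not tested or computed at both times, or had no row of that name.

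**Figure D1:**
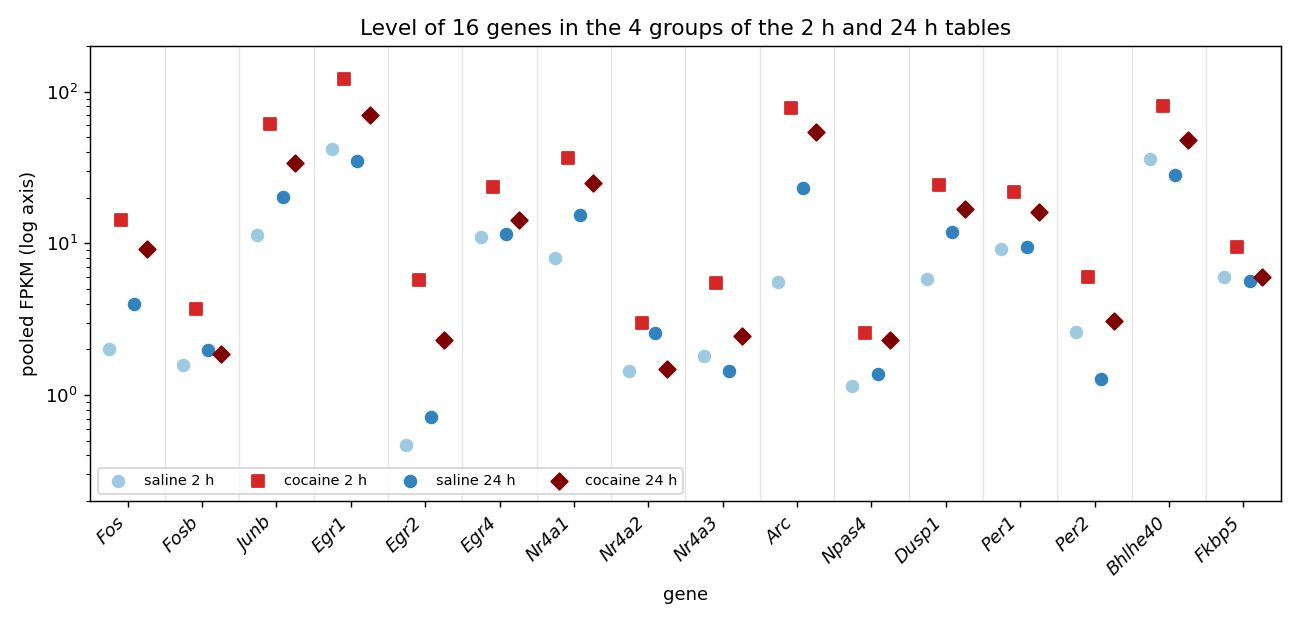
Pooled FPKM (log axis) of 16 genes in saline 2 h, cocaine 2 h, saline 24 h and cocaine 24 h mice, 1 point per group with no error bar because the tables hold 1 value per group. The cocaine 2 h point is the highest of the 4 for every gene shown, and for Fosb and Nr4a2 the cocaine 24 h point lies below the saline 24 h point.

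The AP-1 factors pair as Fos and Jun proteins on DNA, and 4 of the 6 measured were higher at 2 h, with a list median of 0.64. Fos (chr12:85473890-85477273, GRCm38) was at 14.3 FPKM 2 h after cocaine and 9.24 FPKM at 24 h, and its saline levels were 2.02 and 3.95 FPKM. The 4 groups thus ran in the order cocaine 2 h, cocaine 24 h, saline 24 h, saline 2 h. Junb showed the same order, at 61.6 FPKM in cocaine at 2 h, 33.7 in cocaine at 24 h, 20.2 in saline at 24 h and 11.4 in saline at 2 h. Fosb, whose stable splice form is known to build up under repeated cocaine, was at 3.67 FPKM 2 h after cocaine and at 1.86 FPKM after 24 h. Its 24 h cocaine level was no higher than the 1.99 FPKM of saline mice at that time. Fosl2 was at 4.99 and 3.20 FPKM in cocaine, and at 2.80 and 3.26 FPKM in saline. Jun stood apart from its relatives, with 8.67 FPKM at 2 h and 12.6 FPKM at 24 h in cocaine and nearly the same levels in saline (8.80 and 14.1 FPKM). Jund differed little, with a centred ratio of 0.10. Fosl1 had tied loci, and Atf3 was below 1 FPKM in all 4 groups (0.14 to 0.38 FPKM), so neither was counted.

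The Egr zinc finger factors gave the gene with the largest centred ratio of these lists. Egr2 (chr10:67535475-67542188) was at 5.72 FPKM 2 h after cocaine and 2.30 FPKM after 24 h, a centred ratio of 1.32, while its saline levels stayed below 1 FPKM (0.47 and 0.72). Egr1 was at 121 FPKM at 2 h and 70.0 FPKM at 24 h in cocaine, against 41.9 and 35.1 FPKM in saline. Egr4 was at 23.3 and 14.2 FPKM in cocaine and at 11.1 and 11.6 FPKM in saline. Egr3 was less than 1.5-fold apart in cocaine, at 47.9 and 38.8 FPKM, and the highest of its 4 levels was that of saline mice at 24 h (51.9 FPKM). Of the corepressors that bind Egr proteins, Nab2 had a ratio of 0.29 in cocaine and Nab1 0.00.

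All 3 Nr4a orphan nuclear receptors had ratios above 0.5 in cocaine, and 2 passed 1.5-fold. Nr4a3 was at 5.49 FPKM at 2 h and 2.46 FPKM at 24 h (1.16), with 1.82 and 1.44 FPKM in saline. Nr4a2 was at 3.01 and 1.49 FPKM in cocaine (1.01), and in saline it ran the other way, from 1.44 FPKM at 2 h to 2.56 FPKM at 24 h. Its 24 h cocaine level was therefore below that of saline mice killed at the same time, the only such member of the list. Nr4a1, at 36.7 and 25.02 FPKM in cocaine, had a ratio of 0.56, just short of 1.5-fold.

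The promoter sequences of 4 of the genes above are shown because classical response elements of activity-driven transcription often lie close to the start of such genes, and that of the clock gene Per1 because it is described with them below. Sequences are from RefSeq (GRCm38.p6), 5′ to 3′ on the gene's strand, with 250 bases before and 50 after a transcription start. Capitals mark the core of the cyclic AMP response element (CRE core, TGACG on either strand), the E-box CACGTG, to which clock factors bind, and the serum response element (SRE). For genes with several listed starts, the window with the most kinds of motif was taken.

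Fos, chr12:85473640-85473939 (+ strand): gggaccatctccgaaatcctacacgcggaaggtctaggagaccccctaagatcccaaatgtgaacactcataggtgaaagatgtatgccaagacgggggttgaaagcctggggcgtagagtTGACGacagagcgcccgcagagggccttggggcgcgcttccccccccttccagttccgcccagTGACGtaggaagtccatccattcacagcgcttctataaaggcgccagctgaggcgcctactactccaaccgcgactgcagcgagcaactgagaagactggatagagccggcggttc
Junb, chr8:84978699-84978998 (- strand): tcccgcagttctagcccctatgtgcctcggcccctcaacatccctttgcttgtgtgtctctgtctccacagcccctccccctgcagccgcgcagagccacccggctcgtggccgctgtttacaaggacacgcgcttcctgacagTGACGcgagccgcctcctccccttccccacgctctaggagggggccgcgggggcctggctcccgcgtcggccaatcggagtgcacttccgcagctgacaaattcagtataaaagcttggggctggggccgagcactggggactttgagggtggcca
Nr4a3, chr4:48045055-48045354 (+ strand): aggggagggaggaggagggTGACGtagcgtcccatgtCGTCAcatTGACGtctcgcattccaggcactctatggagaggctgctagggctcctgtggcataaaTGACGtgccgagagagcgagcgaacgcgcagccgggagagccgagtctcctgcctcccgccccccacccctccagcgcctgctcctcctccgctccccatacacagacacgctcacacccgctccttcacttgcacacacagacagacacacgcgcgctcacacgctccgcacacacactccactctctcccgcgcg
Egr2, chr10:67537619-67537918 (+ strand): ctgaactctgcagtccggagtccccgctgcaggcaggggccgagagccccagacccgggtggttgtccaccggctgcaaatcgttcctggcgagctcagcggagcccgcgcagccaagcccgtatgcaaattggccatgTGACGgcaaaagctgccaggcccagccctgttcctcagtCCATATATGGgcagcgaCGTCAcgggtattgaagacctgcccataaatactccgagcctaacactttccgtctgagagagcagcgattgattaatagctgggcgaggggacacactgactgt
Per1, chr11:69098699-69098998 (+ strand): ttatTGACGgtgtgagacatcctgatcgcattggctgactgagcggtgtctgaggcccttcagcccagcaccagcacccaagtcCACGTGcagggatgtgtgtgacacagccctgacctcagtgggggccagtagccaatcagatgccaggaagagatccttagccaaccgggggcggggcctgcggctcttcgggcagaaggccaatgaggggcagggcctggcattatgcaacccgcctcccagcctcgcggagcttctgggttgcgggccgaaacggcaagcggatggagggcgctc

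The Fos window held 2 CRE cores, the Junb window 1, the Nr4a3 window 4 and the Egr2 window 2 beside 1 SRE, and the Per1 window held 1 core and 1 E-box. Of the 13 genes of these lists that were higher at 2 h, 10 had a promoter in the table, and 8 of the 10 held a CRE core, against 20.8% of all 32851 promoters. By gene, 36.1% of the 8472 compared genes with a promoter held one, and 61.1% of the 54 measured genes of the 8 lists did. The full CRE (TGACGTCA, which contains the core on both strands) was in 0 of the 10, in 16.7% of the measured list genes, in 3.51% of the compared genes and in 1.79% of all promoters. The EGR site GCGNGGGCG was in 3 of the 10, in 24.1% of the list genes, in 13.3% of the compared genes and in 5.55% of all promoters. The E-box was in 1 of the 10, in 9.26% of the list genes, in 11.9% of the compared genes and in 7.15% of all promoters. The SRE was in 1 of the 10, in 7.41% of the list genes, in 1.62% of the compared genes and in 1.63% of all promoters. Genes with several listed starts count once if any window holds the motif. A match is a run of letters and no measured binding. Elements more than 250 bases before a start lay outside the windows, so a window without a motif does not show that the gene lacks it.

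The synaptic activity effectors were less far apart, and 0 of 14 measured were 1.5-fold higher at 2 h, with a median of 0.22. Arc (chr15:74669083-74672570), whose protein acts in synaptic receptor trafficking, was at 77.8 FPKM 2 h after cocaine and still at 54.1 FPKM after 24 h. In saline mice it was at 5.59 and 23.2 FPKM, so that its saline ratio was -2.03 while its cocaine ratio was 0.53. Homer1, a postsynaptic scaffold with a short activity-induced form, was at 44.9 and 30.3 FPKM in cocaine (0.57), and Rasl11a at 3.50 and 2.37 FPKM (0.56). Npas4, an activity-dependent factor of neurons, was low throughout and nearly level between the times in cocaine, at 2.55 and 2.32 FPKM. The remaining members lay between -0.01 (Nrn1) and 0.48 (Plk3), among them Bdnf at 0.28, Rgs2 at 0.24, Plk2 at 0.23, Pcsk1 at 0.21, Ptgs2 at 0.18, Vgf at 0.15, Scg2 at 0.10 and Nptx2 at 0.00. The tied loci of Inhba kept it out.

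Feedback inhibitors of signalling were in 3 lists. The MAPK phosphatases, which remove phosphate from MAP kinases, had 0 of 8 members past 1.5-fold and a median of 0.16. Dusp1 was at 24.2 and 16.7 FPKM in cocaine (0.54) and at 5.85 and 11.9 FPKM in saline (-1.004). Dusp5 was at 4.52 and 3.15 FPKM in cocaine (0.52) and Dusp6 at 32.6 and 25.7 FPKM (0.34). The other 5, Dusp7, Dusp8, Dusp10, Dusp14 and Dusp16, lay between -0.13 and 0.25. Dusp4 had tied loci, Dusp3 failed the authors' processing at 2 h and Dusp2 was below the minimum. Of the Sprouty and Spred inhibitors of receptor tyrosine kinases, all 7 were above 0 (median 0.31), with Spred2 (28.8 and 17.7 FPKM) and Spry3 (2.47 and 1.61 FPKM) past 1.5-fold. None of 7 SOCS genes, which inhibit JAK-STAT signalling, passed it (median 0.20). Of 22 other fast-response genes, Sik1, a salt-inducible kinase, was at 3.18 and 1.85 FPKM and Ier5 at 36.4 and 22.1 FPKM, and these were the 2 called.

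**Figure D2:**
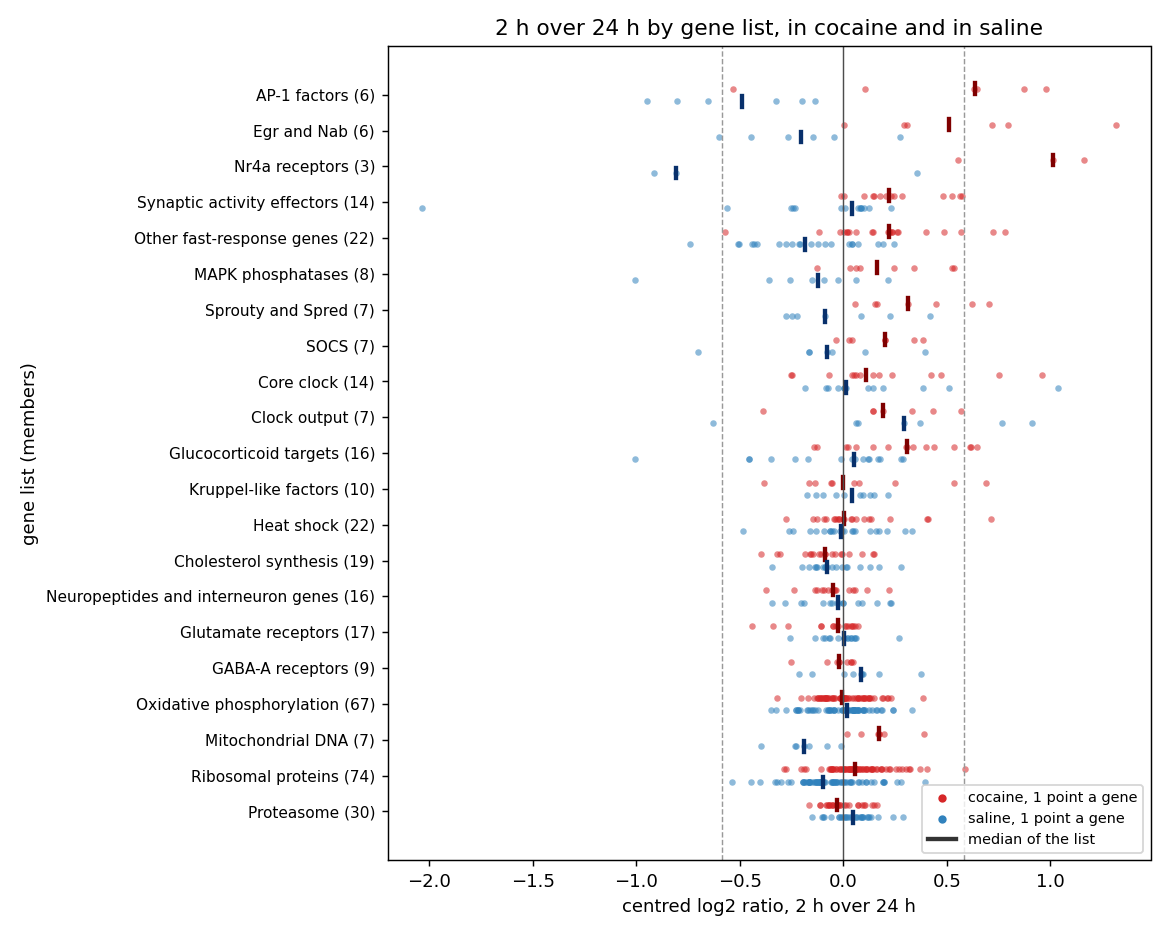
Centred log2 ratio of 2 h to 24 h for 21 gene lists, with 1 point per measured gene in cocaine (red, upper row) and in saline (blue, lower row), a bar at each list's median and dashed lines at 1.5-fold. The AP-1, Egr and Nr4a medians lie at 0.64, 0.51 and 1.01 in cocaine and at -0.49, -0.21 and -0.81 in saline, while those of mitochondrial DNA lie at 0.17 and -0.19.

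Within each table, cocaine could be set against saline mice killed at the same time. Over all genes, 241 (1.95%) were at least 1.5-fold above saline at 2 h and 136 (1.1%) at 24 h. Of the 73 measured immediate-early and feedback genes, 34 were at least 1.5-fold above saline at 2 h and 13 at 24 h. The 34, chosen by this, had a median log2 ratio of cocaine to saline of 1.18 at 2 h. In the separate mice of 24 h their median was 0.49, with 31 of the 34 above 0 (91.2%) and 12 past 1.5-fold (35.3%). Over all protein-coding genes with 1 locus, 54.2% were above 0 at 24 h and 0.476% past 1.5-fold. In the 7 d mice the same 34 had a median of 0.42, with 29 above 0 (85.3%) and 9 past 1.5-fold (26.5%). Over all protein-coding genes with 1 locus, 49.2% were above 0 at 7 d and 0.426% past 1.5-fold.

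The distance from saline differed between the times by unlike amounts in single genes, and it depends on the levels of both treatments. For the 34 genes the median ratio of 2 h to 24 h was 0.52 in cocaine and -0.29 in saline. The saline level was higher at 24 h than at 2 h in 28 of them. For Arc the ratio was 0.53 in cocaine and -2.03 in saline, and for Fos 0.63 and -0.95. Egr2 was 3.62 above saline at 2 h and 1.68 at 24 h on the log2 scale, Arc 3.80 and 1.22, Fos 2.82 and 1.23, Junb 2.44 and 0.74, and Nr4a1 2.19 and 0.70. Egr1 was 1.54 and 0.995 above saline. Fosb went from 1.23 to -0.10 and Nr4a2 from 1.06 to -0.78. In saline, 49 of the 73 list genes had a ratio of 2 h to 24 h below 0, beside 6186 of the 12373 genes. The 24 h saline level was the highest of the 3 saline levels in 43 of 72 list genes with a 7 d value, beside 4704 of 12140 genes, and the part that the animals or the libraries of that group had in this was not tested.

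**Figure D3:**
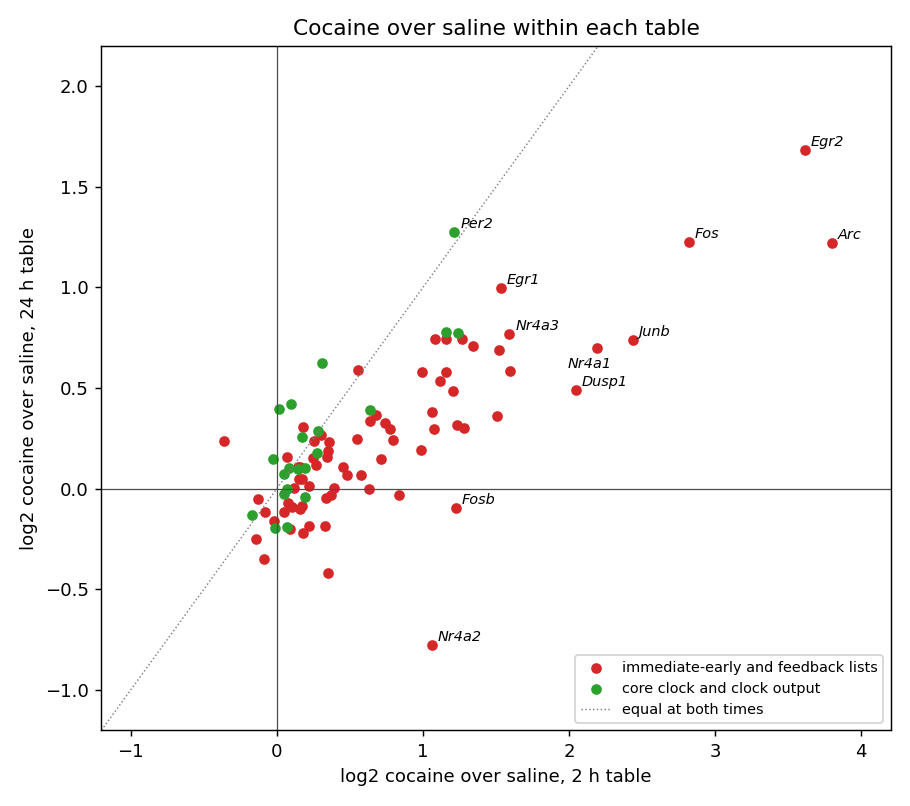
Log2 ratio of cocaine to saline within the 2 h table (horizontal) and within the 24 h table (vertical) for the measured genes of the 8 immediate-early and feedback lists (red) and of the clock lists (green), with a dotted line of equal ratios. Egr2 (3.62 and 1.68), Arc (3.80 and 1.22) and Fos (2.82 and 1.23) lie far below the dotted line, Per2 (1.21 and 1.28) lies close to it, and Nr4a2 is at -0.78 in the 24 h table.

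The same description over all 150 protein-coding genes with 1 locus that were at least 1.5-fold above saline at 2 h gave a median of 0.76 at 2 h and 0.24 at 24 h, with 124 of them (82.7%) above 0 and 21 past 1.5-fold at 24 h. For the 40 genes at least 1.5-fold below saline at 2 h, the median was -0.71 at 2 h and -0.03 at 24 h, and 17 of the 40 (42.5%) were above 0. At 24 h only 1 of the 40 was still at least 1.5-fold below saline. Of all 9872 protein-coding genes with 1 locus, 34 were that far below saline at 24 h, 54.2% were above 0 and 0.476% were at least 1.5-fold above. The median ratio of 2 h to 24 h was 0.42 in cocaine and -0.19 in saline for the 150, and -0.50 and 0.26 for the 40. The genes in each set, like the 34 above, were chosen on their 2 h values, and the 24 h values come from other mice. Such a choice by itself tends to give a smaller distance from saline at 24 h, and its share was not tested.

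Of 14 core clock genes, 2 were higher at 2 h in cocaine and 1 in saline, with medians of 0.11 and 0.01 and none lower. Of 7 clock output genes, 0 passed 1.5-fold in cocaine, while in saline 2 were higher and 1 lower, with medians of 0.19 and 0.29. Over all genes, 1.36% were higher and 1.66% lower in cocaine, and 1.12% higher and 1.53% lower in saline. Per2 (chr1:91415982-91459324), a repressor of the clock loop, was at 6.00 and 3.09 FPKM at 2 h and 24 h in cocaine and at 2.59 and 1.28 FPKM in saline. Its ratio was 0.96 in cocaine and 1.04 in saline, and it stood 1.21 above saline at 2 h and 1.28 at 24 h, so that its distance from saline did not shrink over the day. Per1, which is induced both by the clock and by neuronal activity, was at 21.7 and 16.2 FPKM in cocaine (0.42) and at 9.17 and 9.46 FPKM in saline (-0.02). Bhlhe40, another repressor of the loop, was past 1.5-fold in cocaine, at 80.8 and 48.1 FPKM, against 36.2 and 28.1 FPKM in saline. Among the outputs, Dbp had a ratio of 0.57 in cocaine and 0.91 in saline, Ciart 0.43 and 0.77, Nr1d2 0.33 and 0.37, and Nr1d1 0.19 and 0.29. Nfil3, a D-box repressor, lay on the other side in both treatments (-0.39 and -0.63). Arntl, the positive arm of the loop, was at -0.25 and -0.19. Per3 was the core clock gene with the lowest ratio in cocaine (-0.25), against 0.14 in saline. Cry1, Cry2, Bhlhe41, Clock, Npas2, Rora, Rorb, Csnk1d and Csnk1e lay between -0.07 (Rorb) and 0.47 (Bhlhe41) in cocaine, and Tef and Hlf were both near 0.14.

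**Figure D4:**
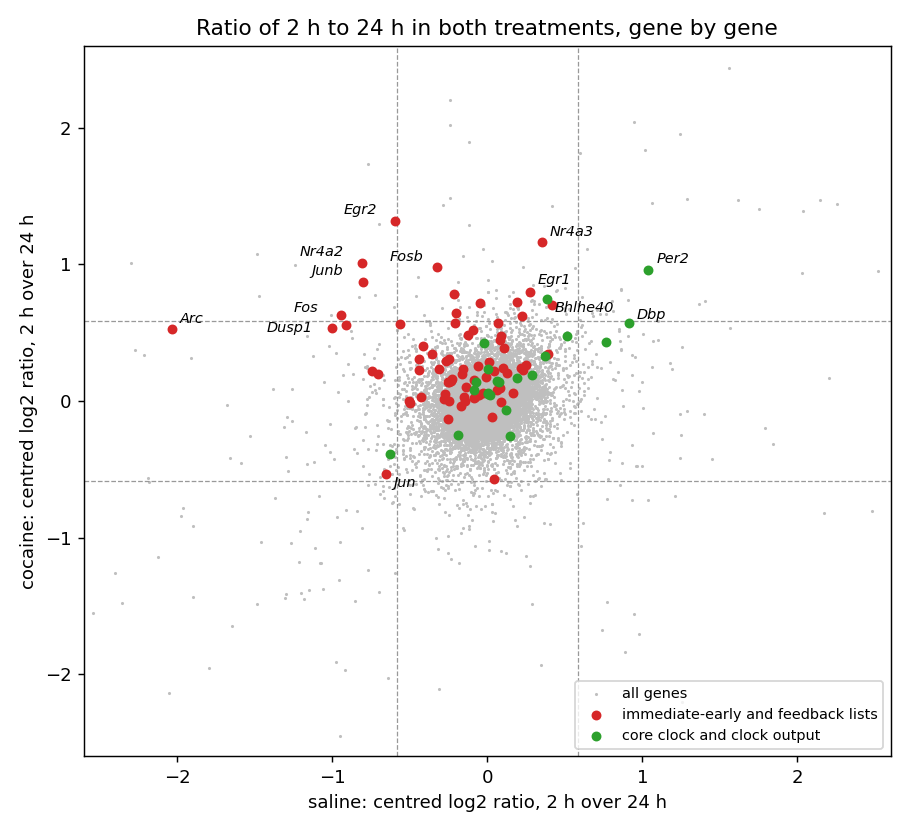
Centred log2 ratio of 2 h to 24 h in saline (horizontal) and cocaine (vertical), 1 point per gene, with the immediate-early and feedback lists in red, the clock lists in green, dashed lines at 1.5-fold and 21 genes outside the axes not shown. Per2 and Dbp lie to the upper right, Arc, Fos, Junb, Egr2 and Nr4a2 to the upper left, and Jun to the lower left.

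Across all 12373 genes with both ratios, the ratio in cocaine and that in saline had a Spearman rho of 0.23, given as a description because genes of 1 table share its libraries and normalization. Of the 73 immediate-early and feedback genes, 68 had a cocaine ratio above their saline ratio, beside 6106 of the 12373 genes. This was not particular to them, since 69 of 74 ribosomal protein genes and all 10 measured astrocyte and 10 microglia markers had it too. In other lists it was less frequent, with 37 of 67 oxidative phosphorylation and 9 of 30 proteasome genes. Past 1.5-fold in opposite directions were 33 genes, of which 11 sat on loci under 300 bases and 8 were protein-coding with 1 locus. Of these 8, Egr2, Nr4a2, Junb and Fos were higher at 2 h in cocaine and lower in saline, and 4 were the reverse. The 8 of the 33 with the largest difference were Avp, the vasopressin gene, and the predicted genes Gm23189, Gm24978, Gm24458, Gm22317, Gm22623, Gm25127 and Gm22682.

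The glucocorticoid list holds genes induced by corticosteroids and the receptor genes Nr3c1 and Nr3c2. It is not separate from the lists above, as it shares Dusp1 and Errfi1 with them. Of its 16 measured members, 14 were above 0, beside 6210 of all 12420 genes, and 3 were past 1.5-fold, beside 1.36% of all. The list median was 0.31 in cocaine and 0.05 in saline. None of the 3 calls held with a pseudocount of 1 (0.57, 0.47 and 0.42 for Fkbp5, Zbtb16 and Map3k6) or with the saline ratio subtracted (0.52, 0.33 and 0.44). Fkbp5, a cochaperone of the glucocorticoid receptor, was at 9.40 and 6.02 FPKM in cocaine and at 6.02 and 5.60 FPKM in saline. Zbtb16 was at 3.98 and 2.61 FPKM and Map3k6 at 2.69 and 1.75 FPKM in cocaine. At 24 h these 3 stood at 0.10, 0.05 and -0.07 from saline on the log2 scale.

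The median ratios of 9 other lists lay within 0.1 of 0 in cocaine. They were 0.00 for 10 Kruppel-like factors, 0.00 for 22 heat shock genes, -0.09 for 19 cholesterol synthesis genes, -0.05 for 16 neuropeptide and interneuron genes, -0.03 for 17 glutamate receptor genes, -0.02 for 9 GABA-A receptor genes, -0.01 for 67 oxidative phosphorylation genes, -0.03 for 30 proteasome genes and 0.06 for 74 ribosomal protein genes. Single members past 1.5-fold were Klf4 (4.23 and 2.62 FPKM), the cochaperone Dnajb5 (79.3 and 48.4 FPKM) and the ribosomal protein gene Rps27 (479 and 320 FPKM). Each fell short of 1.5-fold under at least 1 alternative, with lowest ratios of 0.53, 0.38 and 0.33 in that order. Their saline ratios were -0.18, 0.33 and 0.26. The 7 measured transcripts of mitochondrial DNA had a median of 0.17 in cocaine and -0.19 in saline. Of the nuclear long noncoding RNAs only Neat1 and Snhg11 were counted under a name of their own, and both were lower at 2 h, beside 1.66% of all genes. Neat1 fell short of 1.5-fold under at least 1 alternative (-0.36), while Snhg11 lay at -0.77 or below in each that kept it. A locus that Rian shares with other names, not counted in the list, was nearly level in cocaine (164 and 169 FPKM, -0.05). Snhg11 was at 13.9 FPKM 2 h after cocaine and at 24.5 FPKM after 24 h, against 22.8 and 22.4 FPKM in saline, and Neat1 was at 3.13 and 5.04 FPKM against 4.28 and 5.46 FPKM.

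Of the 78 protein-coding genes called higher at 2 h, 6 were also called higher in saline, and of the 86 called lower, 15 were also called lower in saline. Their median cocaine levels were low, at 3.33 FPKM for the higher and 3.25 FPKM for the lower genes, against 9.35 FPKM over all such genes. In the 7 d mice, which the choice did not use, 45 of the 78 higher genes (57.7%) and 28 of 81 lower genes (34.6%) were above saline, beside 49.2% of all. Genes beyond the lists, chosen after their values were seen, included Irs2, an adaptor of the insulin receptor, at 12.4 and 6.29 FPKM in cocaine (0.98) and 5.30 and 4.59 FPKM in saline. They also included Rasd1, a Ras-like protein induced by dexamethasone, at 3.32 and 1.63 FPKM (1.03), Smad3, which carries TGF-beta signals, at 20.1 and 11.5 FPKM (0.81), and the cyclin gene Ccnd2 at 16.7 and 10.5 FPKM (0.68). In saline the ratio was 0.23 for Irs2, 0.03 for Rasd1, 0.44 for Smad3 (14.6 and 10.9 FPKM) and 0.14 for Ccnd2.

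The extremes of the distribution were mostly noncoding or predicted genes. Among genes with a mean cocaine level of at least 2 FPKM on loci of at least 300 bases, the 12 highest were Tmem261, Gm24270, Gm26268, Gm3699, Gm22414, Gm25405, Gm12840, Gm22969, Gm11032, Gm23935, Gm23049 and Mir320, with ratios from 4.36 down to 1.45. Tmem261 was at 28.9 and 1.41 FPKM in cocaine and at 29.1 and 1.504 FPKM in saline, and its name sits on 2 rows of the 24 h table. The 12 lowest were Gm24967, Tceanc2, Gm25583, Gm23632, Gm22682, Gm16056, Gm16054, Gm22295, Gm15536, Gm24873, Gm17576 and Gm11960, with ratios from -3.96 to -1.65. Tceanc2 was at 4.02 FPKM at 2 h and 41.0 FPKM at 24 h in cocaine, and at 4.38 FPKM in saline at both times. Fragments shared with near-identical copies or host genes can be split differently between tables, and these loci are uncertain. How far poly(A)-enriched libraries capture such transcripts was not tested.

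The minimum of 1 FPKM at both times kept out 205 genes that reached it at 2 h only and 304 that reached it at 24 h only. Just inside were Gm10557 (1.29 and 1.0001 FPKM), Zfp786 and Ccm2l, and just outside Ntf3 (1.23 and 0.999 FPKM), 8430408G22Rik and Gm4793. Of the genes kept out, only Alpk2 and Fer1l5 were protein-coding, single-row and at 2 FPKM or more at 1 of the times. Alpk2 was at 2.66 FPKM at 2 h and 0.973 FPKM at 24 h in cocaine, and Fer1l5 at 0.484 and 3.67 FPKM, and both differed alike in saline (2.41 and 0.937 FPKM, and 0.557 and 3.62 FPKM).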

How the data were processed

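RNA of the mouse prefrontal cortex was sequenced in paired ends on an Illumina HiSeq2000 from poly(A)-enriched libraries. The labels and the paper give different read lengths. The submitters' processing notes name CASAVA 1.8.2, Trimmomatic 0.32, TopHat2 2.0.12, Cufflinks 2.2.1 and Cuffdiff. The authors deposited 1 table per time point with a pooled FPKM per locus for saline and for cocaine. The tables also hold the authors' own fold changes, test statistics, p and q values for cocaine against saline within each time, and these were not used. Columns were matched to treatments through the values of the study's supplementary tables. Positions are 1-based on GRCm38: 97.8% of tested 24 h loci overlapped the RefSeq gene of their name on that build, although the methods name mm9.

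Rows were joined by gene name on the longest locus, and 478 names whose longest locus was tied between rows were left out. Each log2 ratio had the median over all genes subtracted (-0.0024 in cocaine and -0.021 in saline). Calls use 1.5-fold, with no test. The genes named were every gene of the AP-1, Egr and Nab, Nr4a, synaptic effector, MAPK phosphatase and clock lists, up to 6 of each other list past 1.5-fold, the 12 highest and 12 lowest ratios (1 name on the locus, at least 300 bases, mean of at least 2 FPKM), and 8 genes with opposite directions in the treatments. Members, lists and comparisons were chosen with earlier results of these data known. Python 3.11.15, pandas 2.3.3, numpy 2.4.6 and matplotlib 3.10.9 were used, and the steps were tested on simulated data. Alternatives covered the centring, minimum, pseudocount, choice of locus, status, locus length, transcript length, threshold and subtraction of the saline ratio.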

Additional observations from a re-analysis of the deposited data

Results flagged for a closer look

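Among protein-coding genes with 1 locus, 8 were at least 1.5-fold higher at 2 h in one treatment and at least 1.5-fold lower in the other. The difference between the treatments was not tested, since each group has 1 pooled value. The cocaine ratio less the saline ratio, on the log2 scale, was 1.92 for Egr2, 1.82 for Nr4a2, 1.68 for Junb and 1.58 for Fos, which were higher at 2 h in cocaine. It was -3.88 for Avp, -1.90 for Dcdc2b, -1.76 for Pyurf and -1.49 for Tnnt2, which were lower at 2 h in cocaine. Of these, Dcdc2b, Pyurf and Tnnt2 were chosen after their values were seen. Saline levels had no minimum, and those of Egr2, Avp, Dcdc2b and Tnnt2 lay below 1 FPKM at 1 or both times.

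Avp, which encodes vasopressin, a peptide of hypothalamic neurons, was at 1.90 FPKM at 2 h and 3.23 FPKM at 24 h in cocaine, and at 1.21 and 0.141 FPKM in saline. Pyurf was at 6.01 and 9.96 FPKM in cocaine and at 17.3 and 8.58 FPKM in saline. Dcdc2b and Tnnt2 lay between 0.512 and 1.69 FPKM in all 4 groups.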

How the results depend on the processing

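No paired analysis was possible because each table holds 1 pooled value per group, and for the same reason no library could be left out. Counts are given in the order cocaine higher, cocaine lower, saline higher, saline lower (169, 206, 139 and 189 as reported). A minimum of 5 FPKM gave 73, 57, 54 and 53. A pseudocount of 1 gave 92, 106, 89 and 121. A threshold of 2-fold gave 51, 70, 47 and 71. Protein-coding genes on 1 locus, an alternative added after the data were seen, gave 78, 86, 38 and 80. A minimum of 0.5 FPKM gave 324 lower in cocaine and 221 higher and 294 lower in saline. The other 37 counts were within 1.5 times those reported, among them those with the 478 tied names resolved to the higher mean (also added later), of which 7 were past 4 on the log2 scale in both treatments.

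Of the list medians under these alternatives, 363 stayed within 0.1 of the reported value, 20 moved further and 1 turned its direction. Of the values of single named genes, 1090 kept their place, 71 crossed 1.5-fold or moved by over 0.1 below it, and 5 turned. The lists the text leads with moved as follows. At a minimum of 5 FPKM the AP-1 median was 0.36 (4 genes), the Egr and Nab median 0.30 and the Nr4a value 0.55 (1 gene). The Nr4a median was 0.69 with a pseudocount of 1, and 0.69 with no minimum and a pseudocount of 1. With names on 1 locus only, the Egr and Nab median was 0.30 (5 genes). With the saline ratio subtracted, the AP-1, Egr and Nab, and Nr4a medians were 1.08, 0.66 and 1.47.

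Subtracting the saline ratio turned the direction of the clock output median (-0.039), of Per2 (-0.079), of Gm11960 (0.0031), of Gm23935 (-0.14) and of Gm26268 (-1.60). Tmem261 was at -0.020 on the locus with the highest cocaine value. The transcript length trend moved none of these counts or medians past the limits above. Values per library are not analysed here, so depth and replicate spread limit every ratio by an unknown amount.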
